A study of Mus musculus with 25 samples.

Results

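Tumors from mice given diethylnitrosamine (DEN) and a Western diet (DEN-T-WD, 6 libraries, tumors 1 to 6) were compared with liver from DEN-treated mice on the control diet (DEN-L-CD, 4 libraries, livers 1 to 4). These are 10 of the 25 RNA-seq libraries in the series, chosen by their titles and not by any measured value. All animals were male C57BL/6J mice that received DEN at 25 mg/kg by intraperitoneal injection at 2 weeks of age, entered their diet at weaning and were sampled at 36 to 39 weeks. DEN is a carcinogen that hepatocytes convert into an alkylating agent. The control-diet livers were exposed to it as well, and they differ from the tumors in both tissue and diet, and the effects of these cannot be told apart here. For that reason the 8 libraries of peritumoral liver from the Western-diet mice (DEN-PT-WD) are set beside the main values. In the study, lesions of DEN-treated control-diet mice could not be dissected away, so livers 1 to 4 are undivided tissue, and RNA of all samples came from pulverised whole tissue. The labels tie no library to an animal, so each p-value measures the spread between these samples.

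Hepatocytes of the adult mouse differ along the lobule: cells near the central vein make glutamine, drug-metabolizing enzymes and bile acids, and cells near the portal tract make urea and glucose. They also differ between the sexes, since the male pattern of growth hormone pulses keeps up major urinary proteins and male-type cytochromes and holds down female-type ones. Liver tumors of the mouse are known to re-express genes of the fetal liver and, after DEN, commonly carry activating mutations in the RAS-MAPK pathway. In bulk tissue, fewer cells of a type and less RNA per cell cannot be told apart.

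The tumor libraries held 21530083 to 31410005 expected counts (RSEM's estimated reads per gene) and the liver libraries 24628880 to 29415013. Values below are normalized counts, that is expected counts scaled to a common library size, unless TPM is named, and livers are always listed in the order 1 to 4. Adjusted p-values are from edgeR's quasi-likelihood test with Benjamini-Hochberg adjustment over 15625 genes, and a gene is called when it differs at least 2-fold with an adjusted p of at most 0.05. Of 9 tested hepatocyte markers 2 were called lower in tumor, and at an adjusted p of at most 0.05 with no fold limit 6 were lower and 1 higher, with a median log2 fold change of -0.58. Their summed TPM was 78324 to 88360 in the livers, 120300 to 142770 in 5 tumors and 40625 in tumor 5. Alb, the albumin gene, made up 53.9 to 58.9% of this sum in livers and 53.9 to 69.9% in tumors and was not called on normalized counts (log2 fold change 0.36 ± 0.30, adjusted p 0.329). TPM ran higher in tumors than normalized counts did, by a median of 0.44 on the log2 scale over 11515 genes, so the TPM sums below are levels within a library and the tests are those on counts. Marker genes of stratified squamous epithelium, a tissue that liver does not contain, summed to 5.22, 2.85, 33.3 and 41.6 TPM in the livers and to 0.62 to 2.63 TPM in the tumors. Pancreatic acinar markers reached 2555 TPM in liver 3 and 1816 TPM in tumor 6. Glandular stomach markers were at 211 TPM in liver 3, 75.9 TPM in tumor 6 and 41.8 TPM in tumor 2, against 2.24 to 3.53 TPM in the other livers. Some peritumoral livers held them too, with up to 405 TPM of stomach and 27.2 TPM of squamous markers in peritumoral liver 6 and up to 7042 TPM of pancreatic markers. Their part in the results was not tested. Some values are therefore also given without tumor 5, or without tumor 5 and livers 3 and 4 together (the joint setting).

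**Figure D1:**
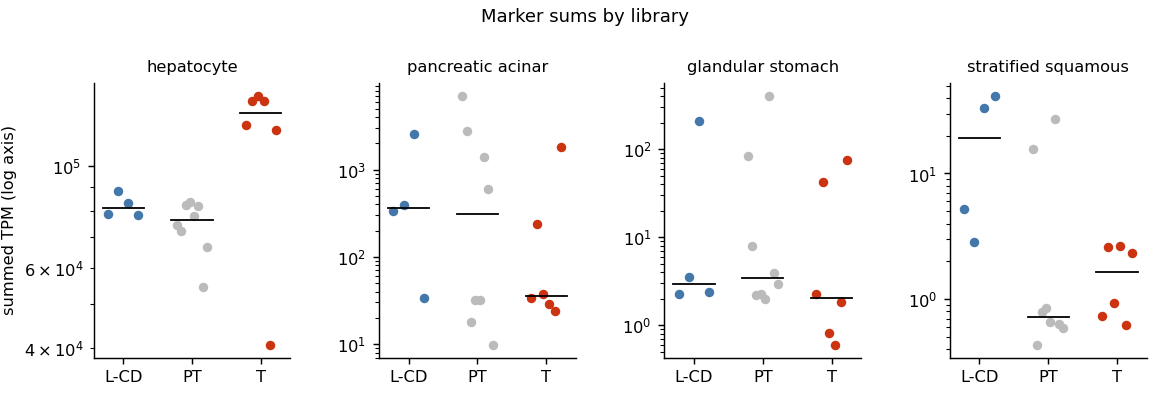
Summed TPM of marker lists by library (points, logarithmic axes) in control-diet liver, peritumoral liver and tumor, with the group median as a line. Tumor 5 lies lowest for hepatocyte markers at 40625 TPM, and livers 3 and 4 lie highest of the control-diet livers for squamous markers.

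The tumors differed from control-diet liver in a large share of the transcriptome, with more genes raised than lowered. Of 15625 genes tested, 2229 were called, which is 14.3%, with 1513 higher in tumor (9.68%) and 716 lower (4.58%). The tumors varied more among themselves than the livers did, with a median SD per gene of 0.24 against 0.156 on the log2 counts-per-million scale. In 4914 genes (31.4% of those tested) the normalized counts of the groups did not overlap, and 1663 of these genes were called. Genes named for the largest fold changes or TPM differences were taken from called genes without overlap, so their separation was fixed by that choice. Against peritumoral liver on the same diet, 4.81% of genes were called higher in tumor and 3.09% lower, and between peritumoral liver and control-diet liver 1.52% were higher and 0.378% lower. Counts of list members below are to be read beside the shares of the same comparison. These 3 comparisons share libraries, so their values are given side by side and are not independent of each other.

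**Figure D2:**
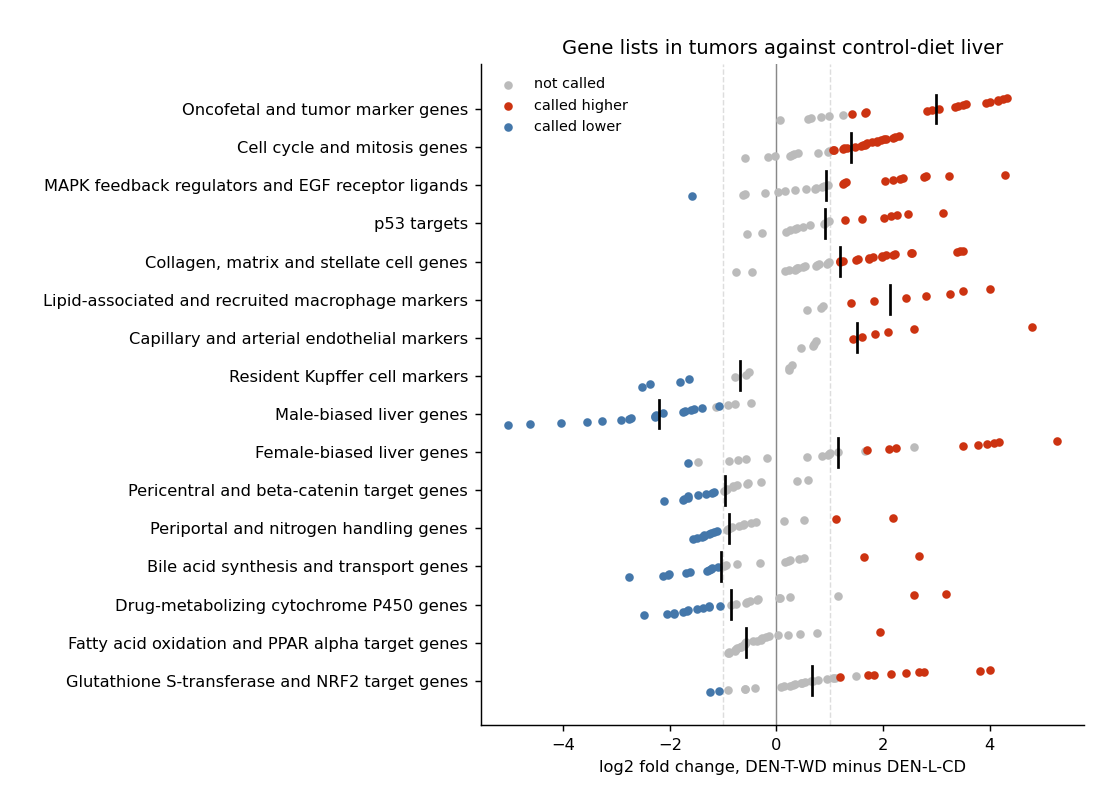
Log2 fold changes (tumor minus control-diet liver) of the tested members of 16 gene lists (points), red where called higher, blue where called lower and gray where not called, with the list median as a black bar. The oncofetal and male-biased lists stand farthest from 0, with medians of 2.99 and -2.19.

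Genes of the fetal liver and known markers of liver tumors were higher in the tumors, and this list had the highest median of those fixed for the analysis. Of its 22 tested members 16 were called higher, against 9.68% of all genes, and the median log2 fold change was 2.99. Against peritumoral liver 14 members were called higher, and between peritumoral and control-diet liver 2. Gpc3, a cell-surface proteoglycan of fetal hepatocytes and hepatocellular carcinoma, was measured at 221 to 6949.8 with a median of 6026 in the tumors and at 105, 147, 194 and 669 in the livers. Tumor 5 was the exception at 221, inside the range of the livers, while the other 5 tumors lay at 3741 to 6949.8. The log2 fold change was 4.16 ± 0.88 (SE, adjusted p 0.000527), and 4.41 without tumor 5.

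Afp, which encodes the fetal counterpart of albumin, was measured at 1096 to 2612 with a median of 1813 in tumors and at 142, 57.8, 89.8 and 453 in livers. Every tumor exceeded every liver, although liver 4 was over 3 times the next liver (log2 fold change 3.34 ± 0.63, adjusted p 0.000171). In peritumoral liver Afp ranged from 92.6 to 1706 with a median of 510.2. H19, an imprinted noncoding RNA of fetal tissue, was 552 to 3797 in tumors and 93.5 to 255 in livers. Spink1, a secreted protease inhibitor, was 744 to 1625 in tumors against 21.7 to 107, and Golm1, a Golgi membrane protein followed as a serum marker of liver cancer, 1174 to 1755 against 125 to 327. None of these 3 overlapped between the groups, and their log2 fold changes were 3.56, 4.00 and 2.82 (adjusted p 6.57e-05, 0.000653 and 1.43e-06). Among the imprinted genes of the list, Igf2, the fetal growth factor next to H19, was not called at 22 to 132 in tumors and 25.3 to 38.2 in livers (log2 fold change 0.83 ± 0.40, adjusted p 0.0924).

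Akr1c18, a steroid-reducing enzyme, was measured at 271 to 7362 with a median of 4899 in tumors against 136, 101, 155 and 606 in livers. Its pattern across libraries was that of Gpc3, with tumor 5 at 271 and liver 4 the highest liver (log2 fold change 4.24 ± 0.90, adjusted p 0.00056). Lcn2, which encodes an iron-scavenging secreted protein, was 6356 to 14319 with a median of 8044 in tumors and 569.5, 139, 110.5 and 1701 in livers, where liver 4 was again highest and the groups did not overlap (log2 fold change 3.93 ± 0.87, adjusted p 0.00082). Ly6d, a small membrane-anchored protein, was even across tumors at 3019 to 5231, all above the livers at 175, 95.2, 261 and 842 (log2 fold change 3.49 ± 0.69, adjusted p 0.000265). Scd2, the stearoyl-CoA desaturase of fetal rather than adult liver, was 3123 to 8688 in tumors and 453 to 1405 in livers (log2 fold change 3.06 ± 0.50, adjusted p 3.46e-05). Bex1, a small adaptor protein expressed in fetal liver, was 22.3 to 348 in tumors and 4.24, 0, 7.28 and 19.9 in livers. All tumors were above all livers, with tumor 5 the lowest tumor (log2 fold change 4.32 ± 0.86, adjusted p 0.000287).

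**Figure D3:**
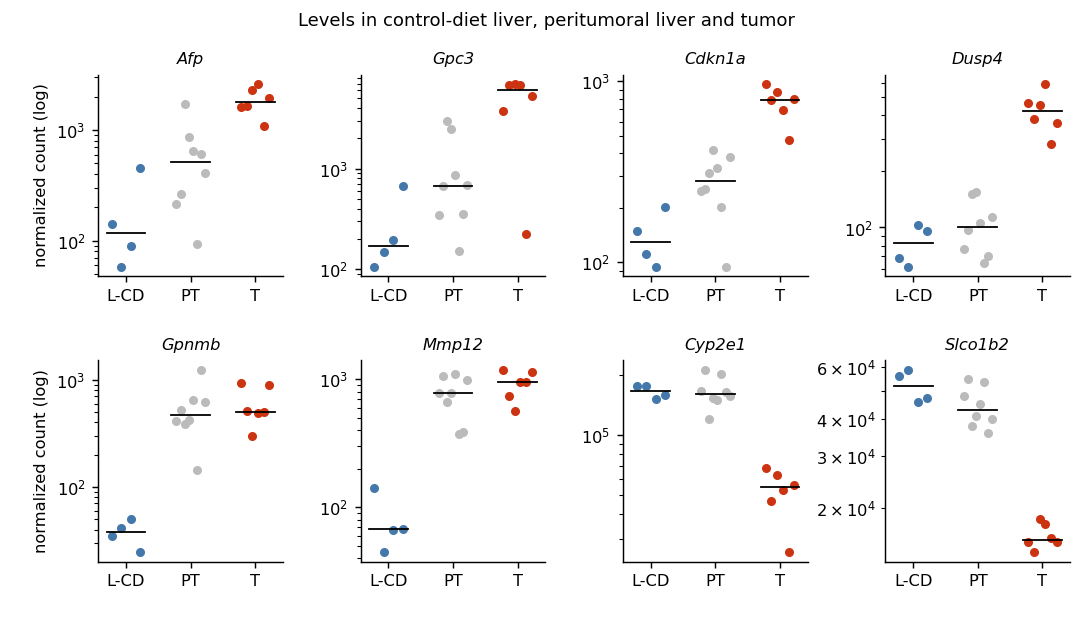
Normalized counts by library (points, logarithmic axes) of Afp, Gpc3, Cdkn1a, Dusp4, Gpnmb, Mmp12, Cyp2e1 and Slco1b2 in control-diet liver, peritumoral liver and tumor, with medians as lines. The peritumoral median of Gpnmb (471) is close to the tumor median (504), and Cyp2e1 and Slco1b2 are lower in tumors than in every library of both other groups.

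Beyond that list, the largest increases by the naming rule included Sult2a2, a sulfotransferase of female liver, Alox5, the leukotriene-forming lipoxygenase, Psrc1, a spindle protein, and Igdcc4, a neural-type cell adhesion receptor. Alox5 was 17.7 to 458 with a median of 246 in tumors against 9.55, 7.23, 9.71 and 6.10 in livers, with no overlap although tumor 5 was far below the other tumors at 17.7 (log2 fold change 4.95 ± 0.84, adjusted p 5.71e-05). Psrc1 was 46.5 to 489.7 with a median of 276 against 2.12, 8.43, 9.71 and 18.3 (log2 fold change 4.93 ± 0.83, adjusted p 4.85e-05). Igdcc4 was 930.5 to 1291 in 5 tumors, 121 in tumor 5 and 23.3, 10.8, 26.7 and 109 in the livers (log2 fold change 4.50 ± 0.76, adjusted p 5.71e-05). Tmc5, a transmembrane channel-like protein, was 104 to 312 in tumors, with tumor 5 inside the range of the others, against 3.61 to 9.55 in livers (log2 fold change 4.82 ± 0.81, adjusted p 4.9e-05). Cbr3, a carbonyl reductase, went the other way, with tumor 5 highest at 6013, the other tumors at 183 to 735 and the livers at 17, 39.8, 179.7 and 65.9. Its log2 fold change was 4.15 ± 0.91 (adjusted p 0.000729), and 2.38 without tumor 5. Tspan8, a tetraspanin of epithelial membranes, was 473 to 5251 in tumors and 156 to 277 in livers (log2 fold change 4.02 ± 0.73, adjusted p 0.00011).

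Male-type liver expression was lower in the tumors of these male mice. Of 22 tested male-biased genes 18 were called lower, against 4.58% of all genes, with a median log2 fold change of -2.19, and 6 were called lower already in peritumoral liver relative to control-diet liver and 10 in tumor relative to peritumoral liver. The major urinary proteins (Mup genes), pheromone carriers that male liver secretes in bulk, lie in a cluster of near-identical copies on chromosome 4 (59956804 to 62150863 in GRCm38). RSEM divides reads among such copies, so the cluster sum is firmer than the value of any single copy. All Mup genes together made up 16.7, 12.9, 17.3 and 18.5% of TPM in the livers and 1.90 to 4.32% in the tumors, with a median of 2.89%. Peritumoral liver lay between, at 4.03 to 10.7% with a median of 7.81%. Of 21 Mup genes tested, 20 were called lower in tumor, and their median log2 fold change was -3.21.

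Among single copies, Mup7 was measured at 2124 to 44125 with a median of 11588 in tumors and at 604541, 324633, 592813 and 625288 in livers. Liver 2 was well below the other livers, yet every liver was above every tumor (log2 fold change -4.81 ± 0.82, adjusted p 5.66e-05). Mup3 was 9592 to 56728 with a median of 39428 in tumors against 217049 to 283579 in livers, with the lowest value in tumor 5 (log2 fold change -2.72 ± 0.31, adjusted p 5.18e-07). Mup20, the male pheromone darcin, differed less, with 387333 to 526481 in livers and 113208 to 191706 in tumors, and in it tumor 5 was the highest tumor (log2 fold change -1.61 ± 0.24, adjusted p 1.46e-05).

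Male-biased enzymes outside the cluster were lower too. Nudt7, a peroxisomal coenzyme A hydrolase, was 2778 to 3962 with a median of 3218 in tumors and 16662, 14058, 16361 and 16480.2 in livers, and the tumors were tightly grouped (log2 fold change -2.26 ± 0.13, adjusted p 2.13e-10). Elovl3, a fatty acid elongase, was 185 to 430.5 with a median of 261 in tumors and 2122, 2115, 1979.9 and 2326 in livers, with no overlap (log2 fold change -2.92 ± 0.24, adjusted p 1.23e-08). Slco1a1, an uptake transporter for organic anions, was 1009.5 to 5150.3 against 17890.0 to 23436, and Cyp7b1, the oxysterol hydroxylase, 619.7 to 2408 against 4022 to 7774 (log2 fold changes -2.77 ± 0.44 and -2.13 ± 0.40, adjusted p 2.49e-05 and 0.000175). Moxd1, a monooxygenase-like protein, was 0 in tumors 1 and 4, 2.86 and 1.85 in tumors 2 and 3, 34.7 and 31.8 in tumors 5 and 6, and 832, 80.7, 381 and 429 in livers. All livers were above all tumors, but the livers differed by about 10 times among themselves (log2 fold change -5.03 ± 1.56, adjusted p 0.0109).

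Of 23 tested female-biased genes, 9 were called higher and 1 lower, against 9.68% and 4.58% of all genes, with a median log2 fold change of 1.15, and 5 were higher already in peritumoral against control-diet liver, while tumor against peritumoral liver gave 4 higher and 5 lower. Cyp2a4, a steroid hydroxylase of female liver (chromosome 7, 26307169 to 26315088), was measured at 50338 to 74558 with a median of 60935 in tumors, including tumor 5, and at 1466, 1351, 2943 and 8562 in livers. The groups did not overlap, and liver 4 was the highest liver (log2 fold change 4.08 ± 0.97, adjusted p 0.00156). Cyp2b9 and Cyp2b13, further female cytochromes, were 3233 to 6218 and 181 to 647 in 5 tumors but 114 and 8.01 in tumor 5, at the low end of the livers (114 to 538 and 7.98 to 35.7). Their log2 fold changes were 3.77 ± 0.80 and 4.18 ± 0.96 (adjusted p 0.000532 and 0.00128). Sult2a2 followed the same split, at 104 to 174 in 5 tumors, 5.38 in tumor 5 and 1.06, 3.16, 3.64 and 3.37 in livers (log2 fold change 5.26 ± 1.11, adjusted p 0.000619). Prom1, a membrane glycoprotein also known as a progenitor marker, was 156 to 1155 in tumors and 42.4 to 109 in livers (log2 fold change 3.50 ± 0.57, adjusted p 3.51e-05). Cyp2b10, a female-biased cytochrome that drugs induce, was the member called lower, at 7.95 to 13.3 in tumors and 12.7, 73.3, 25.2 and 20.8 in livers (log2 fold change -1.66 ± 0.61, adjusted p 0.0282). It was not called without liver 2, at -0.91 (adjusted p 0.262), without tumor 6, at -1.59 (adjusted p 0.0508), or in the joint setting, at -1.97 (adjusted p 0.0516).

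Cyp2a4 has a near-identical neighbor, Cyp2a5, a coumarin hydroxylase of the same cluster. It was 12719 to 16627 in 5 tumors, 151004 in tumor 5 and 9912, 18099, 24081 and 13948 in livers, so only tumor 5 lay outside the other values, and the gene was not called (log2 fold change 1.16 ± 0.58, adjusted p 0.106). The 250 bases upstream of each RefSeq transcript start, which lies downstream of the gene start given by coordinates above, are shown because 1 copy was called and the other was not while their upstream sequences matched in all but 4 of 249 aligned bases (98.4% identity), and the capitals mark those mismatches. Sequences are from RefSeq on GRCm38.p6, plus strand, at chr7:26306942-26307191 for Cyp2a4 and chr7:26835089-26835338 for Cyp2a5.
Cyp2a4: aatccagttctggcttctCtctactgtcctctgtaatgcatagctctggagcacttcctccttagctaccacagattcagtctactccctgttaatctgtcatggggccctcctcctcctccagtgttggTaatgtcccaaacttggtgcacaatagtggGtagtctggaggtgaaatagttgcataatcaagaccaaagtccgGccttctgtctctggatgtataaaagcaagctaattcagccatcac
Cyp2a5: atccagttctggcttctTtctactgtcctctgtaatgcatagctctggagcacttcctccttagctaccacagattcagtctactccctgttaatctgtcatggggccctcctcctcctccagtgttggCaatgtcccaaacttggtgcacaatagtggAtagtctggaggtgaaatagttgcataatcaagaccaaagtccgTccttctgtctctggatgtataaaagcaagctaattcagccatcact
Reads of such copies are split by RSEM's model, so the level of each copy carries that uncertainty.

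**Figure D4:**
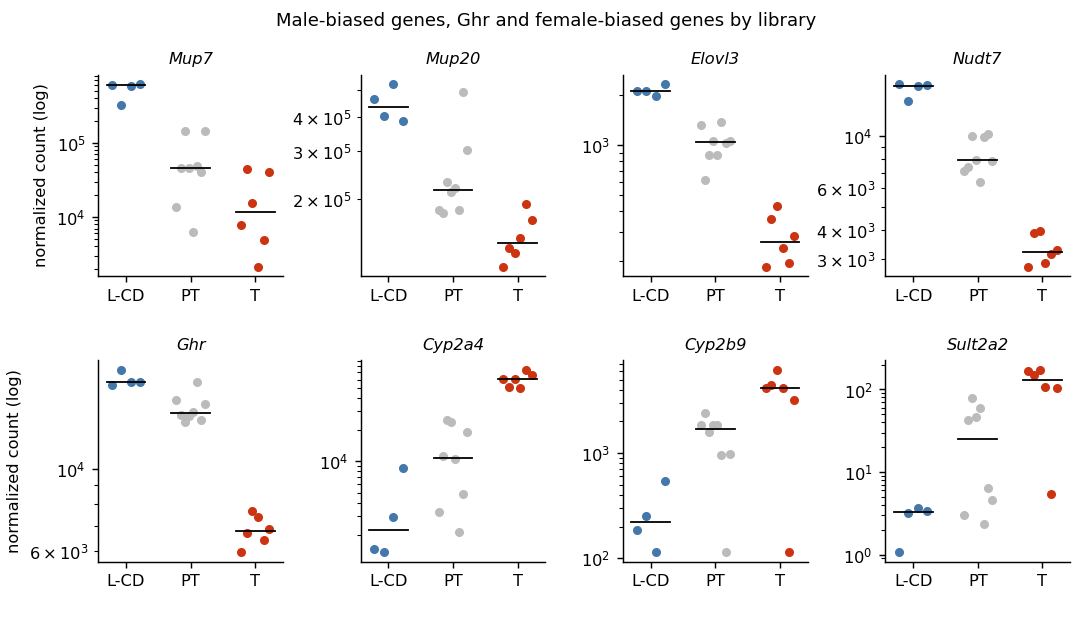
Normalized counts by library (points, logarithmic axes) of the male-biased Mup7, Mup20, Elovl3 and Nudt7, the growth hormone receptor gene Ghr and the female-biased Cyp2a4, Cyp2b9 and Sult2a2 in control-diet liver, peritumoral liver and tumor, with medians as lines. Peritumoral medians lie between the medians of the other groups in all 8 genes, and tumor 5 is the low tumor point for Cyp2b9 and Sult2a2.

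Ghr, the growth hormone receptor, was itself lower in tumors. It was measured at 5928 to 7697 with a median of 6779 in tumors and at 16891, 18538, 17110.3 and 17119 in livers, with little spread within either group (log2 fold change -1.35 ± 0.08, adjusted p 2.96e-10). Peritumoral liver was at 13373 to 17134 with a median of 14125, above every tumor. Igf1, the circulating growth factor that growth hormone induces, was 5587 to 9583 with a median of 6482 in tumors and 19363, 18021, 17444 and 17332 in livers, again without overlap (log2 fold change -1.35 ± 0.16, adjusted p 8.36e-07). Among the 25 hepatocyte transcription factors and receptors tested, 3 were called lower, against 4.58% of all genes: Ghr, Onecut2, a cut-homeodomain factor, and Nr1i3, the drug-sensing nuclear receptor CAR. At an adjusted p of at most 0.05 whatever the size of the change 14 were lower, against 21.5% of all genes. Onecut2 was 1148 to 2328 against 3670.0 to 3924 and Nr1i3 619 to 1582 against 2446 to 3534 (log2 fold changes -1.33 ± 0.16 and -1.32 ± 0.25, adjusted p 8.51e-07 and 0.000184). Hnf4a, a master regulator of hepatocyte identity, was 8277 to 13544 in tumors and 13779 to 15056 in livers (log2 fold change -0.25 ± 0.12, adjusted p 0.0924).

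Among genes of both ends of the lobule, more were called lower than higher in tumors, and many were not called. Of 20 pericentral genes 9 were called lower, against 4.58% of all genes, with a median log2 fold change of -0.97, and 11 were called lower against peritumoral liver, where the share of all genes was 3.09%. Oat, which channels ornithine into glutamate synthesis, was 3629 to 5879 with a median of 5077 in tumors and 24266, 25360.2, 17187 and 19880.3 in livers (log2 fold change -2.11 ± 0.18, adjusted p 1.15e-08). Cyp2e1, the cytochrome that activates DEN and metabolizes ethanol, was 25605 to 67958 with a median of 54511 in tumors and 175476, 175162, 151260 and 158998 in livers, with no overlap and tumor 5 lowest (log2 fold change -1.67 ± 0.19, adjusted p 3.62e-07). In peritumoral liver Cyp2e1 was at 120511 to 212827 with a median of 159618, and its log2 fold change against control-diet liver was 0.00 (adjusted p 0.996). Slc1a2, a glutamate transporter of the innermost pericentral cells, and Cyp1a2, which metabolizes caffeine, were 1221 to 2648 and 1671 to 3350.0 in tumors against 6672 to 7279.9 and 6949.8 to 8401 in livers (log2 fold changes -1.74 ± 0.15 and -1.75 ± 0.19, adjusted p 1.96e-08 and 3.58e-07). Classical targets of beta-catenin, whose gene is mutated in some liver tumors, were among them. Lgr5, a receptor for R-spondins, was 54.6 to 98.1 against 214 to 238, Notum, a WNT deacylase, 119 to 169.7 against 371 to 397, and Glul, glutamine synthetase, 7317 to 14820.2 against 23208 to 26754, all without overlap. Lgr5 and Notum were called (log2 fold changes -1.65 ± 0.20 and -1.46 ± 0.15, adjusted p 8.09e-07 and 9.33e-08), and Glul stopped just short of the 2-fold limit at -0.99 ± 0.16 (adjusted p 3.9e-05). Glul passed that limit when liver 1, liver 2 or tumor 1, 3, 4 or 6 was left out, at -1.0 to -1.04. It also passed with DESeq2, with DESeq2 size factors, without the count filter and with only the 2 groups in the fit, at -1.0 to -1.01.

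Of 22 periportal and nitrogen-handling genes, 9 were called lower and 2 higher, against 4.58% and 9.68% of all genes. Their median log2 fold change was -0.89. Tumor against peritumoral liver gave 1 in each direction, near the shares of all genes (3.09% lower and 4.81% higher), with a list median of -0.64. Enzymes of the urea cycle were among those called lower. Cps1, which makes carbamoyl phosphate, was 34746 to 53720.2 with a median of 42217 in tumors and 109542, 107819, 112525 and 106170 in livers (log2 fold change -1.36 ± 0.22, adjusted p 3.48e-05). Ass1, which joins citrulline and aspartate, was 12273 to 33027 against 42367 to 51303 and Otc, which makes citrulline, 5478 to 8107 against 12849 to 14662, again without overlap (log2 fold changes -1.39 ± 0.29 and -1.17 ± 0.11, adjusted p 0.000527 and 4.02e-08). Amino acid catabolism was represented by Hpd and Tat, enzymes of tyrosine breakdown, at 8035 to 13492 and 7827 to 17084 in tumors against 28305 to 33373 and 31709 to 39551 in livers (log2 fold changes -1.56 ± 0.19 and -1.49 ± 0.30, adjusted p 1.25e-06 and 0.000369). Cdh1, the epithelial cadherin that marks periportal hepatocytes, went the other way, at 2076 to 4502 with a median of 3479.5 in tumors and 618, 413, 1034 and 870.5 in livers (log2 fold change 2.19 ± 0.41, adjusted p 0.000148). Aldh1b1, a mitochondrial aldehyde dehydrogenase, was the other member called higher, at 1796 to 2716 against 913 to 1231 (log2 fold change 1.12 ± 0.23, adjusted p 0.000338).

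Bile acid genes called lower included genes of synthesis as well as of uptake. Of 22 members 11 were called lower and 2 higher (1 without tumor 5), against 4.58% and 9.68% of all genes. The median log2 fold change was -1.04. In tumor against peritumoral liver 8 were lower and 2 higher, where 3.09% and 4.81% of all genes were. Slco1b2, the main sinusoidal anion transporter, was 14151 to 18312 with a median of 15641 in tumors and 56328, 58988, 45731 and 47345 in livers, with tumor 5 inside the tumor range (log2 fold change -1.69 ± 0.14, adjusted p 8.05e-09). Slc10a1, the sodium-dependent bile acid uptake carrier, was 2694 to 4473 with a median of 3533 against 13289, 15979, 14897 and 13731 (log2 fold change -2.03 ± 0.17, adjusted p 1.28e-08). On the synthetic side, Cyp8b1, which decides between cholic and muricholic acids, was 977 to 1445 against 3931 to 5221, Cyp27a1, the sterol side chain hydroxylase, 2372 to 3668 against 8326 to 9892, and Baat, the conjugating enzyme, 2992 to 3358 against 7091 to 8381. These 3 did not overlap between groups (log2 fold changes -2.01 ± 0.23, -1.61 ± 0.11 and -1.30 ± 0.08, adjusted p 5.18e-07, 1.65e-09 and 4.4e-10). Cyp7a1, the rate-limiting enzyme of the classical route, differed less, with 5914 to 9534 in livers and 2085 to 3811 in tumors (log2 fold change -1.21 ± 0.32, adjusted p 0.00400). Cyp39a1, an oxysterol hydroxylase, was higher, at 1428 to 2611 in 5 tumors, 619 in tumor 5 and 334, 611, 691 and 637 in livers (log2 fold change 1.65 ± 0.28, adjusted p 6.41e-05). The export pump Abcb11 was 5834 to 10207 against 14485 to 17499.9 (log2 fold change -1.22 ± 0.12, adjusted p 9.08e-08).

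Drug-metabolizing cytochromes were more often lower than higher, with a median log2 fold change of -0.85. Of 25 tested, 12 were called lower and 2 higher, against 4.58% and 9.68% of all genes. The higher count was 1 or fewer without tumor 5 or liver 1, 2 or 4, and 0 in the joint setting. In tumor against peritumoral liver 12 were lower and 1 higher, where 3.09% and 4.81% of all genes were. Cyp2c29, which makes epoxides of arachidonic acid, was 3191 to 7962 with a median of 6098 in tumors and 33197, 38461, 30831 and 32322 in livers (log2 fold change -2.48 ± 0.27, adjusted p 2.16e-07). Cyp3a11, the major drug-oxidizing cytochrome of mouse liver, was 20742 to 37466 against 68419.8 to 102483 (log2 fold change -1.49 ± 0.22, adjusted p 1.29e-05). Cyp2c40, a female-type member, was higher in 5 tumors at 386 to 1019 than in the livers at 46.3 to 149, with tumor 5 at 57.2, and peritumoral liver ranged from 83.2 to 2801 with a median of 416 (log2 fold change of tumor against control-diet liver 2.58 ± 0.92, adjusted p 0.0252). Without liver 2, without liver 4 and in the joint setting it was not called, at 2.32, 2.53 and 2.98 (adjusted p 0.0735, 0.0591 and 0.0649). The Cyp2c and Cyp3a genes are also families of close copies.

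Cell division genes were higher in tumors. Of 30 members 20 were called higher, against 9.68% of all genes, with a median log2 fold change of 1.40. In tumor against peritumoral liver 8 were called higher, where 4.81% of all genes were. Ccnb1, the mitotic cyclin, was 61.2 to 155 with a median of 99.2 in tumors and 20.2, 20.5, 27.9 and 18.3 in livers (log2 fold change 2.30 ± 0.42, adjusted p 0.000116). Ccne1, which drives entry into S phase, was 107 to 231 with a median of 162 against 28.6, 21.7, 44.9 and 52.5 (log2 fold change 2.18 ± 0.33, adjusted p 1.72e-05). Mki67, the proliferation antigen Ki-67, was 293 to 749.9 with a median of 585 against 156, 142, 216 and 97.7, and its peritumoral range was 117 to 511 with a median of 268. All 3 were above every liver in every tumor, and Mki67 had a log2 fold change of 1.89 ± 0.37 (adjusted p 0.000271). Members that were not called included Pcna, the clamp of the replicative polymerases, which was 712 to 1055 in tumors and 886 to 1041 in livers (log2 fold change -0.15 ± 0.08, adjusted p 0.128). Ccnd1, the G1 cyclin, was 1628 to 5011 with a median of 3701 in tumors against 1351, 1274, 1763 and 1244 in livers, with tumor 5 within the liver range (log2 fold change 1.25 ± 0.31, adjusted p 0.00205).

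Promoters of mitotic genes are known for CCAAT boxes and for the cell cycle homology element TTTGAA. Of the 20 called cell cycle genes 16 had a RefSeq promoter entry, and in the 250 bases upstream 13 held CCAAT on either strand, a sequence present in 33.8% of all 32851 promoters searched. Over the whole list 19 of 24 genes with an entry held it. TTTGAA on either strand was found in 6 of the 16 and in 8 of the 24, against 16% of all promoters. Ccnb2, Cdc20 and Plk1, a mitotic cyclin, an activator of anaphase and a mitotic kinase, are shown as examples from 5′ to 3′. Matches to either motif are in capitals, and Plk1 held CCAAT but no TTTGAA. The stretches are from RefSeq on GRCm38.p6 at chr9:70421555-70421804 (minus strand), chr4:118437344-118437593 (minus strand) and chr7:122159185-122159434 (plus strand).
Ccnb2: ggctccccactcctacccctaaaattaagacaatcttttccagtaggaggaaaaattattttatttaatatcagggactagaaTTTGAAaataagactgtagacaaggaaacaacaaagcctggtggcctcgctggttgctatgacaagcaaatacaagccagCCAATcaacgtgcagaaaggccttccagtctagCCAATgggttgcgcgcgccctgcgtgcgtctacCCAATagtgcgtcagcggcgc
Cdc20: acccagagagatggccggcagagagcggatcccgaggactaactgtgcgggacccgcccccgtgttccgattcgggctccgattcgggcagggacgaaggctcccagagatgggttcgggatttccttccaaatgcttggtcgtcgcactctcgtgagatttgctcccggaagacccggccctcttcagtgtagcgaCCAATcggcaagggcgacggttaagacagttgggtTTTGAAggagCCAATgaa
Plk1: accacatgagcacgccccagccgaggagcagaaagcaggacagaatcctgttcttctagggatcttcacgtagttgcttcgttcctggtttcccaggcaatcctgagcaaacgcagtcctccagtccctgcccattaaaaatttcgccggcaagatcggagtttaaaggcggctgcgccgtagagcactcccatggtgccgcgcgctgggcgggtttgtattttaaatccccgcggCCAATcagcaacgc
These 3 genes were 58.9 to 121, 39 to 114 and 20.8 to 74.7 in tumors against 14.7 to 30.1, 18.3 to 26.7 and 8.43 to 14.6 in livers. Their log2 fold changes were 2.05 ± 0.36, 1.59 ± 0.44 and 2.23 ± 0.46 (adjusted p 7.02e-05, 0.00539 and 0.000449). With tumor 5 and livers 3 and 4 left out Cdc20 was not called, at 1.37 (adjusted p 0.0742). A match of these letters is a description of the window and not a bound site.

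Of 24 feedback regulators and ligands of the EGF receptor and MAPK pathway, 11 were called higher in tumors and 1 lower. The shares of all genes were 9.68% and 4.58%, and the list median log2 fold change was 0.93. In tumor against peritumoral liver 7 were called higher, and in peritumoral against control-diet liver 1, where 4.81% and 1.52% of all genes were. Dusp4, a nuclear phosphatase that ERK induces, was 282 to 589.8 with a median of 421 in tumors and 68.9, 61.4, 103 and 95.2 in livers, and all tumors exceeded all peritumoral livers at 64.8 to 155 with a median of 101 (log2 fold change against control-diet liver 2.37 ± 0.24, adjusted p 1.41e-07). Dusp5, an ERK-specific phosphatase, and Ier3, an immediate early gene, were 81.8 to 592 and 71.5 to 501 against 47.3 to 80.6 and 40.1 to 61, with tumor 5 lowest in both (log2 fold changes 2.76 ± 0.52 and 2.32 ± 0.41, adjusted p 0.000176 and 9.65e-05). The ligands Areg and Hbegf were 14 to 72.7 and 59.7 to 153 in tumors against 0 to 4.86 and 18.2 to 36.1 in livers, again without overlap (log2 fold changes 4.29 ± 0.65 and 2.18 ± 0.31, adjusted p 1.51e-05 and 7.39e-06). Their receptor Egfr was not called, at 4524 to 10679 against 8105 to 14444 (log2 fold change -0.62 ± 0.42, adjusted p 0.240). Phlda1, a pleckstrin-like protein often used as an ERK output gene, was the member called lower, at 355 to 884 with a median of 596 in tumors and 1764, 1890.4, 2449.7 and 1411 in livers (log2 fold change -1.58 ± 0.41, adjusted p 0.00292).

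Of 18 tested targets of p53, 7 were called higher, against 9.68% of all genes, and the median log2 fold change was 0.90. In tumor against peritumoral liver 6 were higher, where 4.81% of all genes were. Cdkn1a, the cyclin-dependent kinase inhibitor p21, was 472 to 967 with a median of 793 in tumors and 148, 111, 94.7 and 203 in livers (log2 fold change 2.46 ± 0.45, adjusted p 0.00014). Tnfrsf10b, the TRAIL death receptor, was 141 to 206 with a median of 170.4 against 9.55, 10.8, 30.2 and 26.9, with tumor 5 inside the tumor range (log2 fold change 3.13 ± 0.43, adjusted p 4.23e-06). Phlda3, an inhibitor of AKT, was 73 to 287 against 23.1 to 56.2 (log2 fold change 2.26 ± 0.34, adjusted p 1.49e-05). Mdm2, the ubiquitin ligase of p53 and its most direct feedback target, differed less, at 751 to 1071 against 635 to 754 (log2 fold change 0.38 ± 0.10, adjusted p 0.00354).

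Apoc2, the activator of lipoprotein lipase, was 14786 to 27691 with a median of 19068 in tumors and 4128, 3529, 3110.3 and 4834 in livers, and the lipase gene Lpl, which adult hepatocytes keep low, was 3294 to 8323 with a median of 4149 against 1072, 877, 1035 and 1039. Neither overlapped between groups (log2 fold changes 2.35 ± 0.25 and 2.26 ± 0.25, adjusted p 1.77e-07 and 4.04e-07), and both were higher in tumor than in peritumoral liver as well, by 1.5 and 1.02 on the log2 scale (adjusted p 3.14e-06 and 0.000269). Fabp1, the fatty acid binding protein of hepatocytes, was 20238 to 79789.9 in tumors against 106573 to 138778 (log2 fold change -1.29 ± 0.26, adjusted p 0.000297). Of 25 lipid droplet and uptake genes 3 were called in each direction, and of 24 lipogenic genes 2 were higher and 4 lower, against 9.68% of all genes called higher and 4.58% lower. The lower counts became 2 of the lipogenic genes without liver 3 or tumor 5, and 5 and 6 of the lipid droplet genes without liver 3 and tumor 3. With tumor 5 and livers 3 and 4 left out they were 2 and 5. Hilpda, a lipase inhibitor that hypoxia and fatty acids induce, was 81.8 to 243 against 44.9 to 80.6 (log2 fold change 1.32 ± 0.27, adjusted p 0.000392). Me1, which makes NADPH for lipogenesis, and Thrsp, a lipogenic nuclear protein, were 2326 to 4674 and 1669 to 4019 in tumors against 5176, 10201, 12621 and 10093 and 3502, 11093, 11951 and 10057 in livers, and liver 1 was the lowest liver in both (log2 fold changes -1.62 ± 0.35 and -1.62 ± 0.37, adjusted p 0.000622 and 0.000992). Scd1, the adult desaturase, was 105523 to 379588 in tumors and 386952, 613349, 521764 and 538257 in livers, against the direction of Scd2 (log2 fold change of Scd1 -1.11 ± 0.40, adjusted p 0.0273). Scd1 was no longer called when liver 2, 3 or 4 or tumor 1 or 5 was left out, with adjusted p just above the limit (largest 0.07, without liver 2). Its log2 fold change was then -1.01 to -1.1, but -0.95 without tumor 5, below the 2-fold limit. In the joint setting Scd1 was not called either, at -0.91 (adjusted p 0.165). Among 26 fatty acid oxidation genes the median log2 fold change was -0.57. Only Fgf21, the fasting hormone, was called, and it was higher, at 118 to 582 against 43.4 to 102 (log2 fold change 1.95 ± 0.44, adjusted p 0.00106), while 14 members were lower at an adjusted p of at most 0.05 whatever the size of the change, against 21.5% of all genes. Without tumor 1, 2 members were called lower.

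Cholesterol synthesis genes gave 1 call among 24, with a median log2 fold change of -0.16. Without tumor 5, 3 members were called higher, and with tumor 5 and livers 3 and 4 left out 5 were. The count of lower members was 2 without liver 1, liver 2 or tumor 3, 4 or 6. The 1 member called with all libraries was Tm7sf2, a sterol reductase, at 397 to 684 in tumors and 1078 to 1634 in livers (log2 fold change -1.34 ± 0.16, adjusted p 6.55e-07). The intermediate tissue differed from both ends, with 6 members lower in peritumoral than in control-diet liver and 6 higher in tumor than in peritumoral liver.

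Of 37 acute phase and plasma protein genes 4 were called higher and 5 lower, against 9.68% and 4.58% of all genes, with a median log2 fold change of -0.10. Apoa4, an apolipoprotein of triglyceride-rich particles, was 13449.6 to 137452 with a median of 63312 in tumors and 16022, 14484, 11643 and 15790.5 in livers, where tumor 5 lay within the liver range (log2 fold change 2.21 ± 0.45, adjusted p 0.000388). Cp, the copper-carrying ferroxidase ceruloplasmin, was 89299 to 119346 in 5 tumors, 44071 in tumor 5 and 38138 to 46076 in livers (log2 fold change 1.25 ± 0.22, adjusted p 8.97e-05). Hamp, which encodes the iron hormone hepcidin, went down, at 2229.5 to 6234 with a median of 4089.7 in tumors and 13773, 13804, 14223 and 14615 in livers, and the livers were closely alike (log2 fold change -1.82 ± 0.32, adjusted p 8.93e-05). Its copy Hamp2 was 7.64 to 105 against 174 to 528 (log2 fold change -2.05 ± 0.68, adjusted p 0.0170), and it was not called without liver 2 at -1.52 (adjusted p 0.0965). Apoa2, the second apolipoprotein of high-density particles and a hepatocyte marker, was 32148 to 50941 in tumors and 82421 to 93801 in livers (log2 fold change -1.09 ± 0.12, adjusted p 4.12e-07).

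Genes of glucose production and use were called about as often as all genes, of which 14.3% were called. Of 19 genes of gluconeogenesis and glycogen, 2 were called lower and 1 higher, which is 15.8%. G6pc, which releases free glucose, was 2231 to 5447 with a median of 3765 in tumors and 7439, 16342, 14264 and 12343 in livers, with liver 1 the lowest liver (log2 fold change -1.68 ± 0.31, adjusted p 0.00012). The cytosolic and mitochondrial forms of phosphoenolpyruvate carboxykinase went in opposite directions. Pck1 was 16198 to 32570.5 in tumors against 55810.1 to 77189, and Pck2 was 161 to 416 against 64.7 to 122, and neither overlapped between groups (log2 fold changes -1.22 ± 0.21 and 1.71 ± 0.22, adjusted p 6.79e-05 and 2.1e-06). Of 31 glycolysis and pentose phosphate genes 4 were called higher and 1 lower, with a median log2 fold change of 0.02, which is 16.1% called. Without tumor 5 or liver 4 the higher count was 2, with tumor 5 and livers 3 and 4 left out it was 0, and the lower count was 0 without tumor 5, without liver 2 or in that joint setting. Pkm, pyruvate kinase M, was 907 to 1311 in 5 tumors, 2475 in tumor 5 and 554 to 725 in livers (log2 fold change 1.02 ± 0.24, adjusted p 0.00133). It stopped short of the 2-fold limit at 0.98 without liver 3, 0.97 without liver 4, 0.72 without tumor 5 and 0.58 in the joint setting.

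Progenitor and bile duct markers went both ways, with 4 of 11 called higher and 2 lower, against 9.68% and 4.58% of all genes. Sox9, a transcription factor of ducts and progenitors, was 169 to 369 with a median of 272 in tumors and 83.8, 74.7, 108 and 85.5 in livers, and Pkhd1, the ciliary protein fibrocystin, 299 to 733 against 188 to 201 (log2 fold changes 1.64 ± 0.28 and 1.34 ± 0.20, adjusted p 6.89e-05 and 1.24e-05). Both separated the groups completely. The count of lower members was 1 without liver 1, liver 3, tumor 3, tumor 4 or tumor 5. The summed level of this list was 44 to 257 TPM in tumors and 18.6 to 28.2 TPM in livers, on the TPM scale that ran higher in tumors. Tspan8 above is one of its members and, like the sum, was lowest among tumors in tumor 5. The members named here were all among those called higher.

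Matrix genes were higher in tumors, and some were higher in peritumoral liver as well. Of 34 collagen, matrix and stellate cell genes 18 were called higher, against 9.68% of all genes, with a median log2 fold change of 1.19. In peritumoral against control-diet liver 9 were called higher and in tumor against peritumoral liver 7, where 1.52% and 4.81% of all genes were. Col1a1, the main fibrillar collagen, was 796 to 1806 with a median of 1286 in tumors, 278, 207, 183 and 225 in livers and 422 to 956 with a median of 712 in peritumoral liver (log2 fold change of tumor against control-diet liver 2.53 ± 0.30, adjusted p 7.32e-07). Col4a1, a basement membrane collagen, was 2979.6 to 4981 in tumors against 786 to 1039 (log2 fold change 2.05 ± 0.19, adjusted p 4.23e-08). Spp1, osteopontin, a secreted phosphoprotein of bile ducts and macrophages, was 7999 to 17782 with a median of 15179 in tumors and 1253, 978, 1114 and 1768 in livers, with no overlap (log2 fold change 3.43 ± 0.38, adjusted p 2.86e-07). Mmp13, a collagenase, was 135 to 413 against 12 to 35 (log2 fold change 3.39 ± 0.47, adjusted p 6e-06). Acta2, the actin of activated stellate cells, was 281 to 485 against 195 to 243, short of the 2-fold limit (log2 fold change 0.80 ± 0.18, adjusted p 0.000918).

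Recruited macrophage markers were mostly higher, while fewer of the markers of resident macrophages were called and those were lower. Of 10 lipid-associated and recruited macrophage markers 7 were called higher in tumor, against 9.68% of all genes, with a median log2 fold change of 2.13. Already in peritumoral against control-diet liver 6 were called higher, and 2 in tumor against peritumoral liver, where 1.52% and 4.81% of all genes were. Gpnmb, a membrane glycoprotein of lipid-laden macrophages, was 299 to 934 with a median of 504 in tumors, 35, 41, 49.8 and 24.4 in livers and 144 to 1246 with a median of 471 in peritumoral liver. Its log2 fold change was 4.01 ± 0.68 for tumor against control-diet liver (adjusted p 6.01e-05), 3.88 for peritumoral against control-diet liver (adjusted p 0.00198) and 0.13 for tumor against peritumoral liver (adjusted p 0.845). Mmp12, macrophage elastase, was 569 to 1187 in tumors and 141, 44.6, 66.8 and 68.4 in livers, and its 3 log2 fold changes in the same order were 3.51, 3.24 and 0.26 (adjusted p 3.91e-06, 0.000361 and 0.564). Cd63, a lysosomal tetraspanin that is not specific to macrophages, was called in both comparisons of tumor, at 3.26 in tumor against control-diet liver and 1.88 against peritumoral liver (adjusted p 5.98e-07 and 1.66e-05), with 1121 to 2935 in tumors and 195 to 350.4 in livers.

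Of 10 markers of Kupffer cells, the resident macrophages of the liver sinusoid, 4 were called lower, against 4.58% of all genes. Their median log2 fold change was -0.67. In tumor against peritumoral liver 6 were lower, where 3.09% of all genes were. Cd163, the hemoglobin scavenger receptor, was 17 to 227 with a median of 95.5 in tumors and 668, 739, 527 and 468 in livers (log2 fold change -2.51 ± 0.51, adjusted p 0.000348). Timd4, a receptor for apoptotic cells, was 25.8 to 85.4 against 150.2 to 274 (log2 fold change -1.82 ± 0.32, adjusted p 7.99e-05). Marco, a scavenger receptor, was uneven among the livers at 90.2, 949, 499 and 107, and livers 1 and 4 lay within the tumor range of 42.9 to 133 (log2 fold change -2.38 ± 0.59, adjusted p 0.00207). Cd5l, a secreted scavenger protein, was not called, at 2370.5 to 4257 in tumors and 2017 to 4798 in livers (log2 fold change 0.24 ± 0.27, adjusted p 0.476). The list's summed level was 205 to 375 TPM in tumors and 307 to 426 TPM in livers, on the TPM scale that ran higher in tumors. C6, a complement component that this list also holds, is made by hepatocytes as well, at 1531 to 3275 in tumors and 5809.9 to 8125 in livers (log2 fold change -1.63 ± 0.25, adjusted p 1.98e-05).

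Genes of capillary and arterial endothelium were higher in tumors. Of 10 such markers 6 were called higher, against 9.68% of all genes, with a median log2 fold change of 1.52. In tumor against peritumoral liver 6 were higher, where 4.81% of all genes were. The list summed to 81.4 to 120 TPM in tumors and 35.0 to 36.5 TPM in livers. Apln, the apelin peptide of angiogenic tip cells, was 57.3 to 409 with a median of 86.1 in tumors and 2.12, 2.41, 4.86 and 11 in livers (log2 fold change 4.79 ± 0.73, adjusted p 1.69e-05). Esm1, another tip cell product, was 524 to 1028 with a median of 714 against 117, 127, 98.3 and 144, and Angpt2, a destabilizing ligand of vessels, 94.5 to 302 against 35.2 to 55.4 (log2 fold changes 2.58 ± 0.28 and 1.85 ± 0.26, adjusted p 2.48e-07 and 7.23e-06). None of these 3 overlapped between groups. Of 10 sinusoidal endothelial markers 0 were called by edgeR and 0 by DESeq2, and their median log2 fold change was 0.02. At an edgeR adjusted p of at most 0.05 with no fold limit 3 were higher and 2 lower. In the joint setting 1 was called higher. Of 11 T cell markers 0 were called by either tool and 0 reached an unadjusted p under 0.05. The T cell sum was 5.38 to 17.2 TPM in tumors and 4.32 to 8.25 TPM in livers, so these transcripts were sparse in both groups.

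Tumor 5 stood apart from the other tumors in the genes of the oxidative stress factor NRF2. Of 30 tested glutathione S-transferase and NRF2 target genes, 28 had their highest tumor value in tumor 5, while 30.4% of all tested genes were highest in that tumor. Gpx2, a glutathione peroxidase, was 2022 in tumor 5, 3.73 to 61.9 in the other tumors and 7.42, 3.61, 68 and 11 in livers. Slc7a11, the cystine carrier, was 17509 in tumor 5, 193 to 611 in the other tumors and 37.1, 24.1, 673 and 203 in livers, with liver 3 above the other 5 tumors. Gsta1, a glutathione S-transferase with close copies, was 37229.7 in tumor 5, 838 to 2023 in the other tumors and 342, 499, 2977 and 431 in livers. The library that carried these high values was the lowest of the tumors for Gpc3, Akr1c18, Igdcc4 and Alb, the albumin gene, which was 637050 in tumor 5, 2542450 to 3355750 in the other tumors and 1778290 to 2197070 in livers.

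**Figure D5:**
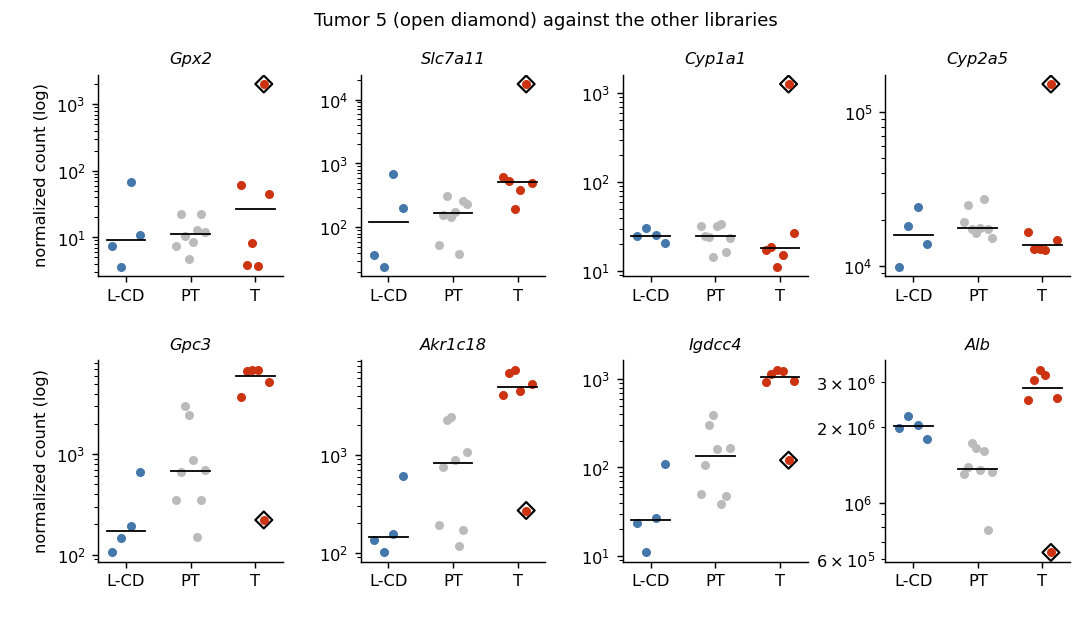
Normalized counts by library (points, logarithmic axes) of Gpx2, Slc7a11, Cyp1a1, Cyp2a5, Gpc3, Akr1c18, Igdcc4 and Alb in control-diet liver, peritumoral liver and tumor, with medians as lines and tumor 5 as an open diamond. Tumor 5 is highest of all libraries shown in the upper row and lowest of the tumors in the lower row.

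The call count of the list depended on this library. With all tumors 9 of 30 members were called higher and 2 lower, against 9.68% and 4.58% of all genes. Without tumor 5 the counts were 3 higher and 5 lower, and 3 of 30 is near that share of all genes called higher. Without liver 1, 5 were called higher, and with only the 2 groups in the fit 3 were. The log2 fold changes of Gpx2, Slc7a11 and Gsta1 were 4.00, 3.82 and 2.77 with it (adjusted p 0.0203, 0.0106 and 0.0259) and 0.13, 0.92 and 0.26 without it (adjusted p 0.908, 0.258 and 0.717). Gpx2 and Gsta1 also lost the call when liver 1, 2 or 4 was left out, with adjusted p of 0.0568 to 0.0762. Their log2 fold changes stayed at 3.65 to 3.78 and 2.48 to 2.54. DESeq2 gave no adjusted p for Gpx2, Slc7a11, Gsta1 or Cyp1a1. Members that kept the call without tumor 5 included Nqo1, a quinone reductase, and Srxn1, sulfiredoxin. Nqo1 was 438 to 782 in the other 5 tumors and 163 to 280.4 in livers, and Srxn1 2230.2 to 4123 against 896 to 1607 (log2 fold changes without tumor 5 1.23 and 1.40, the larger adjusted p 0.00165). Mgst1 and Gsta3, transferases abundant in normal hepatocytes, were lower in tumors at 42211 to 56504 and 13239.9 to 22810.3 against 87784 to 106185 and 36033 to 48729 (log2 fold changes -1.08 ± 0.09 and -1.25 ± 0.15, adjusted p 1.96e-08 and 1.06e-06). Cyp1a1, the cytochrome induced through the aryl hydrocarbon receptor, was 1272 in tumor 5 and 11.2 to 26.6 in the others, against 21 to 30.5 in livers. Its log2 fold change of 3.17 ± 1.10 (adjusted p 0.0210) became -0.51 without tumor 5 (adjusted p 0.136). Without liver 1 or liver 4 it was 3.16 and 3.09 (adjusted p 0.0505 and 0.0535).

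Another set of genes followed livers 3 and 4. Among the largest decreases in tumor were Krt13 and Krt4, keratins of stratified squamous epithelium, and Rptn, a protein of its cornified layer. Krt13 was 65.8, 37.4, 538 and 671 in livers, 9.55 in tumor 2, 0.795 in tumor 6 and 0 in the other tumors (log2 fold change -7.52 ± 2.06, adjusted p 0.00508). Krt4 was 74.2, 21.7, 365 and 386 in livers and 0 to 7.64 in tumors, and Rptn 40.3, 25.3, 187 and 316 in livers and 0 to 5.73 in tumors. All livers were above all tumors, which the naming rule required, and livers 3 and 4 were the highest in each gene. Of 8 tested squamous markers, a list written after these values were seen, 7 were called lower with a median log2 fold change of -5.77. With tumor 5 and livers 3 and 4 left out together, the log2 fold change of Krt13 was -4.56 (adjusted p 0.169), that of Krt4 -4.23 (adjusted p 0.0961) and that of Rptn -4.52 (adjusted p 0.132), so none of these 3 was called. The part of other tissue in these libraries was not tested.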

How the data were processed

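RNA from pulverised tissue was sequenced single-end after mRNA capture (KAPA mRNA HyperPrep). The authors aligned reads with STAR and estimated gene levels with RSEM, and the expected counts deposited per sample, rounded to whole numbers, were used for all tests. The deposited TPM was used for levels, and the deposited FPKM was not used. Versions, strand setting and annotation release are not given in the sources used here. Counts were fitted with edgeR 4.0.16 (R 4.3.3, TMM, filterByExpr with a minimum count of 10, quasi-likelihood test) over all 25 libraries in 5 groups, which share 1 spread estimate. Calls needed an adjusted p of 0.05 or less and a change of 1 or more on the log2 scale. Alternatives were DESeq2 1.42.0, its size factors, no count filter, 2 groups only, a replicate block and leaving out libraries. In simulated counts for this comparison (15254 genes), 188 of 200 changed genes were recovered with 6 others. The changed genes were above a minimum level, changed by more than the 2-fold limit and were far fewer than the calls in the data. No outlying library or other tissue was simulated. Per-gene chi-square between replicates was at least 34.4, so no library was counted as a duplicate. RSEM splits reads among near-identical copies, so single genes of families such as Mup, Cyp2a, Cyp2c, Cyp2b, Cyp3a, Gsta and Hamp are uncertain, as are overlapping genes.

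The members and gene lists were chosen with earlier results of these data known. Named genes were those called with the largest fold changes or TPM differences, up to 3 per direction in each list, the member of highest level in each list and the genes most variable among tumors. Genes outside this rule, chosen after their values were seen, were Abcb11, Acta2, Afp, Areg, Baat, Ccnb2, Cdc20, Col1a1, Col4a1, Cps1, Cyp27a1, Cyp2a5, Cyp2b10, Cyp2b9, Cyp7a1, Cyp8b1, Elovl3, Glul, Golm1, H19, Hbegf, Hnf4a, Igf1, Igf2, Lgr5, Mdm2, Mki67, Notum, Nqo1, Nudt7, Otc, Pcna, Plk1, Prom1, Spink1 and Srxn1. Promoter sequences are from RefSeq (GRCm38.p6), and 48349 of 48795 gene identifiers matched GENCODE M21 (GRCm38), which gave coordinates.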

Additional observations from a re-analysis of the deposited data

Results flagged for a closer look

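In groups of 4 to 6 samples, 1 sample lay apart from the rest in 13 of 86 group values examined, by Dixon's test at the 95% level, which chance flags in about 1 of 20. Tumor 5 was the lowest tumor by that measure for Alox5 (17.7 against 179 to 458), Igdcc4 (121 against 930.5 to 1291), Mup3 (9592 against 31915 to 56728), Sult2a2 (5.38 against 104 to 174) and the hepatocyte marker sum (40625 against 120300 to 142770 TPM). Over all 15625 genes tumor 5 was apart as the highest tumor in 779 and as the lowest in 976, while each other tumor was apart in at most 67 in a direction. Tumor 2 was highest for Krt13 (9.55 against 0 to 0.795) and Rptn (5.73 against 0 to 0.795), and tumor 3 for the erythroid marker sum (7455 against 2518 to 3271 TPM). Among livers, liver 2 was lowest for Mup7 (324633 against 592813 to 625288) and highest for the erythroid sum (2924 against 1239 to 1360 TPM). Liver 1 was lowest for Sult2a2 (1.06 against 3.16 to 3.64) and had the highest library total (29415013 against 24628880 to 24957785 expected counts). Liver 3 was highest for the glandular stomach sum (211 against 2.24 to 3.53 TPM). No cause was tested.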

How the results depend on the processing

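The count of called genes was 2219 with DESeq2, 2231 with DESeq2 size factors, 2441 without the count filter and 1995 with only the 2 groups in the fit, against 2229. Leaving out 1 library at a time gave 2132 to 2344 (1404 to 1565 higher and 682 to 779 lower). Dropping the 2-fold limit raised it to 7324, with 3963 higher and 3361 lower. Tumors and control-diet livers came from mice on different diets, so replicate numbers could not pair them, and deviations of same-numbered samples correlated at -0.22 to 0.23. Pairing of tumors with peritumoral livers was not tested, and the fit treated those libraries as independent. A fit with a replicate block called 2228, of which 2017 were among the 2229 and 1 of the 2229 had the opposite sign. Of the 2229 calls, 1950 remained without tumor 5, the lowest number for any 1 library, and 1705 remained with tumor 5 and livers 3 and 4 left out together, a setting chosen after seeing the data. Of 136 genes named, 116 kept both their sign and their side of the thresholds under each of 16 settings that gave an adjusted p. Cyp1a1 reversed to -0.19 under the block, -0.51 without tumor 5 (range over 1 library left out -0.51 to 3.42) and -0.62 in the joint setting. Cyp2a5 reversed to -0.01, -0.24 (range -0.24 to 1.40) and 0.00 in the same settings. B2m, near 0 in all settings, reversed to 0.02 under the block and ran from -0.06 to 0.06 with 1 library left out, and Cd5l reversed to -0.09 in the joint setting. With the block, called members changed by over 1.5 times for antioxidant (3 higher, 4 lower), glycolysis, bile acid, cytochrome and cholesterol (1 higher each), lipid droplet (5 lower), adipocyte (3 lower) and B cell genes (0 lower). Without tumor 6 there were 5 pancreatic markers called lower. The cause was not tested. Depth limits the rarest transcripts, such as Krt13 and Areg, which had few counts in 1 group.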

Other observations

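Of 30 interferon-stimulated and antigen presentation genes 7 were called higher, against 9.68% of all genes, with a median log2 fold change of 0.65. B2m, the light chain of MHC class I and the member of highest level, was not called, at 30247 to 45815 in tumors and 36349 to 42555 in livers (log2 fold change -0.01 ± 0.11, adjusted p 0.962). H2-Eb1 and H2-Ab1, chains of MHC class II molecules, were 1044 to 1600.0 and 974 to 1489.9 in 5 tumors, 2904 and 2774 in tumor 5 and 414 to 824 and 442 to 823 in livers (log2 fold changes 1.45 ± 0.27 and 1.34 ± 0.29, adjusted p 0.000162 and 0.000585). Oas1a, an interferon-induced sensor of double-stranded RNA, was 268 to 453 in tumors and 94.2 to 133 in livers (log2 fold change 1.58 ± 0.26, adjusted p 4.5e-05). Against peritumoral liver the log2 fold changes of H2-Eb1 and H2-Ab1 were 0.51 and 0.42 (adjusted p 0.0662 and 0.150), that of Oas1a was 0.72 (adjusted p 0.00762), and the list median was 0.28. With tumor 5 and livers 3 and 4 left out together, 1 member of the list was called, and H2-Eb1 and H2-Ab1 were below the 2-fold limit at 0.92 and 0.79.

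Antibody transcripts followed liver 1. Of 8 B and plasma cell markers 3 were called lower in tumor (0 without liver 1), and Ighm, the heavy chain of IgM, was 7345, 760.3, 1594 and 984 in livers and 236 to 1211 in tumors (log2 fold change -1.92 ± 0.63, adjusted p 0.0148). Without liver 1 the Ighm difference was -0.66 (adjusted p 0.381). Alas2, the first enzyme of heme synthesis in red cells, was 2526 to 2921 in livers and 890.1 to 1649.7 in tumors, while erythroid marker sums ran from 1239 to 2924 TPM in livers and from 2518 to 7455 TPM in tumors (log2 fold change of Alas2 -1.34 ± 0.12, adjusted p 4.23e-08).

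Most of the genes that varied most among tumors encode pancreatic enzymes. Cpb1, a carboxypeptidase of pancreatic juice, was 3880.3 in tumor 6, 459 in tumor 2 and 1501, 1217, 7592 and 63.5 in livers. Of 14 pancreatic acinar markers 0 were called by edgeR or DESeq2 and 0 reached an unadjusted p under 0.05, and of 5 neutrophil markers the same counts were 0, 0 and 0.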
